A study of Mus musculus with 10 samples.

Results

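The 10 genes described here were listed for signalling below the IL-18 receptor, its inhibitors included: Myd88, Irak4, Irak1, Irak2, Irak3, Traf6, Traf1, Tab2, Map3k7 and Tnip1. They were taken as a named list from the 55359 genes of the count table, and all 10 were among the 15777 genes with enough reads to test. The libraries are bulk RNA sequencing of mouse pmel-1 lymphocytes, CD8 T cells from the spleen whose transgenic receptor recognises a peptide of the melanoma antigen gp100. Every group had been activated for 48 h with that peptide and kept for another 48 h with human IL-2. Cells then received, by electroporation, mRNAs for both IL-12 and a decoy-resistant IL-18 (mixture), IL-12 mRNA alone (IL12) or decoy-resistant IL-18 mRNA alone (DRIL18), and were cultured for 24 h before RNA was taken. Electroporated controls (Mock) and cells without electroporation (NoEp) completed the 5 groups of 2 libraries each. The sources used here do not give which mRNA, if any, the Mock cells received.

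Receptors for IL-18, IL-1 and IL-33 carry no kinase of their own. When ligand joins the receptor chains, the adaptor MyD88 gathers the kinases IRAK4, IRAK1 and IRAK2 into a complex, and these engage the ubiquitin ligase TRAF6. The ubiquitin chains that TRAF6 builds are bound by TAB2, which brings in the kinase TAK1 (gene Map3k7), and TAK1 switches on NF-kB and the stress-activated MAP kinases. IRAK3, also called IRAK-M, is the member of the IRAK family known mainly as an inhibitor, and TNIP1, also called ABIN-1, holds NF-kB back together with the ubiquitin-editing enzyme A20. In T cells IL-12 is known for raising IL-18 receptor levels, which lets the cytokine pair act together on interferon gamma.

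Library totals were between 31281944 and 35062545 counts, and between 20326 and 21358 genes were detected per library. The 5 markers of CD8 T cells summed to 1940 to 1950 CPM (counts scaled to library size) in the mixture, 2170 to 2230 CPM in IL12, 2560 CPM in both DRIL18 libraries, 2650 CPM in both Mock libraries and 2740 to 2840 CPM in NoEp, and all 5 were lower in the mixture than in Mock. The part of that shift in the results below was not tested. Neutrophil markers reached at most 0.098 CPM in sum, with S100a8 and S100a9 at 0 in every library, and the plasmacytoid marker Siglech was at 0 as well. In bulk libraries fewer cells of a type and less RNA per cell cannot be told apart. Labels call the libraries biological replicates without saying whether they came from separate animals, so every p-value is set by the spread among these libraries alone, which may be technical.

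The mixture moved all 10 genes away from Mock, and the brakes moved furthest. Irak3 was 6.07-fold and Tnip1 2.16-fold higher in the mixture than in Mock, whereas IL12 alone lowered both and DRIL18 alone raised both. Myd88 and Irak2 followed IL-12: they were 1.81-fold and 1.82-fold higher in the mixture and 2.49-fold and 2.37-fold higher in IL12, while DRIL18 alone left them at or slightly under the Mock level without passing the test. Irak4, Irak1 and Traf6 were lower in the mixture than in any other group. Traf1, Tab2 and Map3k7 were modestly higher in the mixture than in Mock.

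Counts of calls put these changes beside the rest of the transcriptome. A gene was called at an adjusted p under 0.05 in edgeR's quasi-likelihood test with Benjamini-Hochberg adjustment over all 15777 genes, and CPM and fold changes are on library sizes scaled by TMM. In the mixture against Mock 7 members were higher and 3 lower, where 32.0% of all genes were higher and 31.9% lower, and the median log2 fold change was 0.462 over the members and -0.00209 over all genes. In IL12 against Mock 5 were higher and 3 lower, against 23.0% and 23.6% of all genes, with medians of 0.0962 and -0.00651. In DRIL18 against Mock 3 were higher and 1 lower, against 12.2% and 12.1% of all genes, with medians of -0.091 and 0.00435. With so many genes moving in every comparison, a call on a single member is common background, and the sizes below carry more than the counts.

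**Figure D1:**
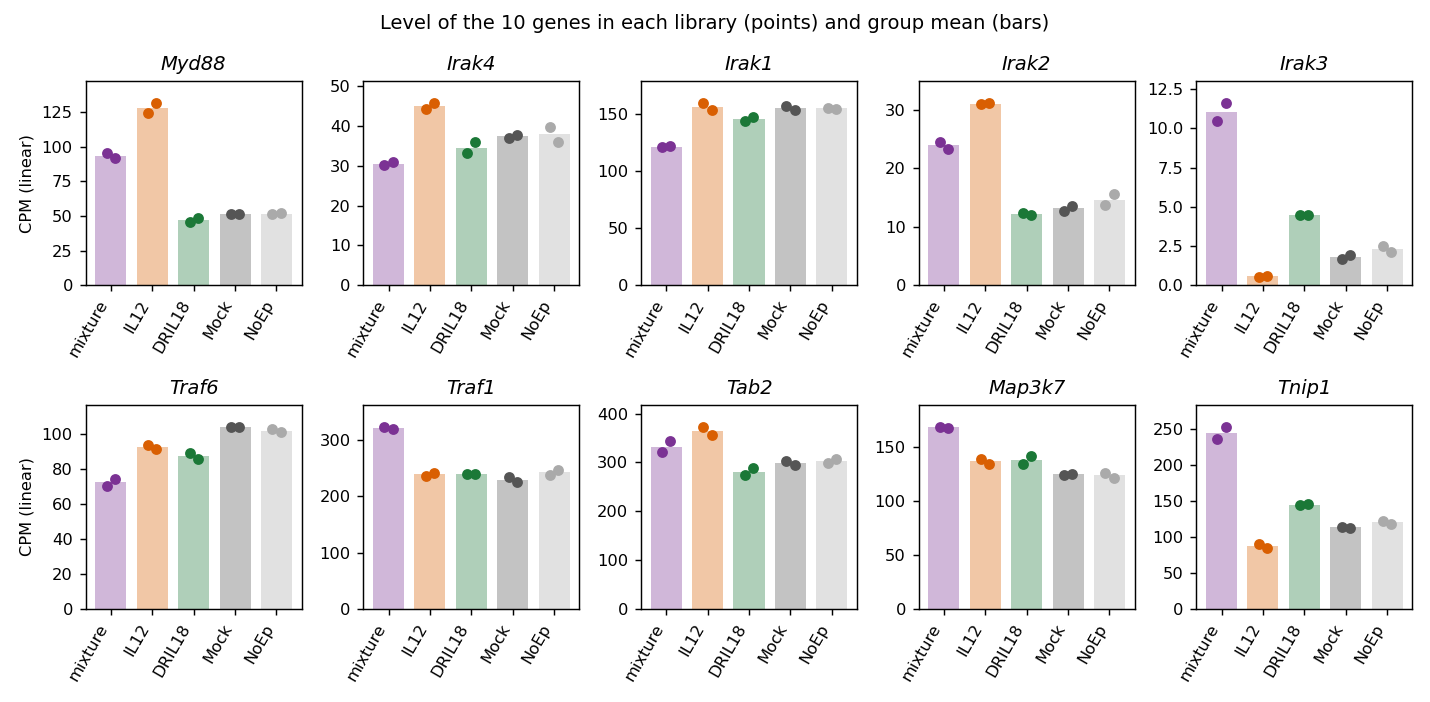
CPM (linear axis from 0, each panel with its own range) of the 10 genes in the mixture, IL12, DRIL18, Mock and NoEp. Points are single libraries and bars are group means of 2 libraries. Irak3 and Tnip1 are highest in the mixture and lowest in IL12, while Myd88 and Irak2 are highest in IL12.

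The adaptor came first. Myd88 (ENSMUSG00000032508) had 95.5 and 91.6 CPM in the mixture, 124.5 and 131.8 CPM in IL12, 46.0 and 48.6 CPM in DRIL18, 51.3 and 51.7 CPM in Mock, and 51.2 and 52.1 CPM in NoEp. Libraries with IL-12 mRNA stood well above the other 6, and among them the mixture stood below IL12 with no overlap. Myd88 rose by a log2 fold change of 0.86 ± 0.05 (SE) in the mixture against Mock (adjusted p = 4.36e-16) and by 1.31 ± 0.05 in IL12 against Mock (adjusted p = 2.2e-20), and the mixture was lower than IL12, at -0.45 ± 0.05 (adjusted p = 6.18e-10). For DRIL18 against Mock it was -0.12 ± 0.05 (adjusted p = 0.0787), which passed when the mark "bis" on 6 of the count columns was a covariate (-0.17, adjusted p = 0.0338). Mock and NoEp overlapped.

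Myd88 lies on the strand opposite to Acaa1a, a peroxisomal thiolase gene whose exons overlap it, and with the strand setting of the counting not given, reads of the overlap cannot be told apart. Acaa1a had 43.1 and 42.4 CPM in the mixture, 60.5 and 61.8 CPM in IL12, 57.9 and 51.0 CPM in DRIL18, and 60.1 and 63.0 CPM in Mock. Its log2 fold change was -0.01 in IL12 against Mock (adjusted p = 0.905), so it did not share the rise of Myd88 with IL-12. It was -0.52 in the mixture against IL12 (adjusted p = 3.75e-09), close to the -0.45 of Myd88, and the part of the overlap in that fall of Myd88 was not tested.

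The 300 bases around the Myd88 start (250 before and 50 after) hold a match to the STAT motif TTCNNNGAA, the palindromic letters that STAT factors, including the IL-12-activated STAT4, are known to bind. The window is shown because Myd88 was among the members that were highest in IL12. It runs over chr9:119340031-119340089 on the minus strand of GRCm38.p6 (RefSeq), with the match, 46 bases before the start, in capitals.
Myd88 STAT window: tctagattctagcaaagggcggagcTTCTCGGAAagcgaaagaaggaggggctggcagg
Of 32851 RefSeq promoters of this length 2726, or 8.3%, hold the motif, and of the members only Myd88 and Tnip1 do among 13 promoters. RefSeq promoters were found for all 10 members. Irak2, Irak4 and Tab2 were also highest in IL12 and have no match, and Tnip1 was lowest in IL12. A match is a run of letters and says nothing of binding in these cells.

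The initiating kinase moved less. Irak4 (ENSMUSG00000059883), whose product is the first kinase to dock on MyD88, had 30.1 and 30.8 CPM in the mixture, 44.2 and 45.7 CPM in IL12, 33.2 and 35.9 CPM in DRIL18, 37.0 and 37.7 CPM in Mock, and 39.8 and 35.9 CPM in NoEp. The mixture was lowest and IL12 highest, and neither overlapped any other group. The log2 fold change was -0.30 ± 0.06 in the mixture (adjusted p = 0.000162) and 0.27 ± 0.06 in IL12 (adjusted p = 0.000594), and -0.11 in DRIL18 did not pass (adjusted p = 0.217). The overlapping gene on the other strand, Twf1, which encodes an actin-binding twinfilin, was 0.38 higher in the mixture (adjusted p = 9.58e-07) and 0.33 higher in IL12 (adjusted p = 1.59e-05). Irak4 thus went the other way from Twf1 in the mixture and the same way in IL12, where the part of shared reads was not tested. The mixture was lower than DRIL18, at -0.18 (adjusted p = 0.0158), a call that was lost with DESeq2 (adjusted p = 0.0813), without DRIL18 replicate 2 (-0.13, adjusted p = 0.199) and without mixture replicate 1 (adjusted p = 0.101).

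Irak1 (ENSMUSG00000031392), the kinase that IRAK4 phosphorylates, was the member with the smallest range between group means, 0.367 on the log2 CPM scale. It had 121.4 and 121.9 CPM in the mixture, 160.1 and 153.7 CPM in IL12, 144.3 and 147.8 CPM in DRIL18, 157.7 and 154.2 CPM in Mock, and 156.0 and 154.6 CPM in NoEp. IL12, Mock and NoEp overlapped, DRIL18 lay just under them, and the mixture lay apart below all. The log2 fold change in the mixture against Mock was -0.36 ± 0.04 (adjusted p = 1.86e-09), and 0.01 in IL12 (adjusted p = 0.879) and -0.09 in DRIL18 (adjusted p = 0.076) did not pass. DRIL18 passed where only the groups compared were fitted (adjusted p = 0.0379). IL12 was above DRIL18 by 0.10 (adjusted p = 0.0345), a call lost when either DRIL18 library was left out (adjusted p = 0.197 without replicate 1 and 0.0591 without replicate 2) and without IL12 replicate 1 (adjusted p = 0.209).

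Irak2 (ENSMUSG00000060477), which is known for sustaining the signal after IRAK1 is used up, had 24.5 and 23.4 CPM in the mixture, 31.0 and 31.2 CPM in IL12, 12.3 and 12.0 CPM in DRIL18, 12.7 and 13.6 CPM in Mock, and 13.7 and 15.7 CPM in NoEp. Its order of groups was nearly that of Myd88, with the 4 IL-12 libraries above all others and IL12 above the mixture. Irak2 rose by 0.87 ± 0.08 on the log2 scale in the mixture (adjusted p = 9.96e-11) and by 1.24 ± 0.08 in IL12 (adjusted p = 5.07e-14), and the mixture was lower than IL12, at -0.38 (adjusted p = 9.96e-05). DRIL18 was at -0.11 against Mock (adjusted p = 0.405). Gm43963, which overlaps it on the other strand, had at most 0.556 CPM in any library.

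Irak3 (ENSMUSG00000020227), the IRAK family's inhibitory member, showed the widest range of the 10, 4.16 on the log2 CPM scale between group means. It had 10.4 and 11.6 CPM in the mixture, 0.522 and 0.597 CPM in IL12, 4.50 and 4.48 CPM in DRIL18, 1.70 and 1.93 CPM in Mock, and 2.48 and 2.14 CPM in NoEp. In raw counts these were 358 and 392 in the mixture, 16 and 19 in IL12, 156 and 152 in DRIL18, 60 and 65 in Mock, and 79 and 77 in NoEp. No groups overlapped: the mixture stood at the top, DRIL18 next, then NoEp and Mock, with IL12 at the bottom on few reads.

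Against Mock, the log2 fold change of Irak3 was 2.60 ± 0.17 in the mixture against Mock (adjusted p = 8.7e-15), -1.69 ± 0.27 in IL12 against Mock (adjusted p = 3.79e-06) and 1.31 ± 0.18 in DRIL18 against Mock (adjusted p = 1.56e-06). NoEp was a little above Mock, and Mock against NoEp was -0.35 ± 0.20 (adjusted p = 0.36). The mixture was 19.6-fold above IL12 (4.29 ± 0.21, adjusted p = 1.93e-17), and 101 of the 15777 genes had a larger value in that comparison. It was 2.46-fold above DRIL18 (1.30 ± 0.15, adjusted p = 5.04e-09). So IL-12 mRNA went with less Irak3 when given alone and with more Irak3 when given beside DRIL18.

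IRAK-M is best known from monocytes and macrophages, so the markers of those cells and of the other cell types a spleen culture could hold were read beside it. Their 6 genes summed to 6.99 to 7.65 CPM in the mixture, 6.17 to 7.17 CPM in IL12, 6.06 to 7.66 CPM in DRIL18, 6.79 to 7.11 CPM in Mock and 8.41 to 8.43 CPM in NoEp. Most of that sum was Cd68, at 7.24 and 6.64 CPM in the mixture and 4.81 and 6.27 CPM in Mock. Of the 6, 1 was higher and 2 lower in the mixture than in Mock. Lyz2 had 0.146 and 0.178 CPM in the mixture (5 and 6 reads) and 1.33 and 0.327 CPM in Mock (47 and 11 reads). The part of such cells in the Irak3 levels was not tested. In the mixture, markers of CD4 T and regulatory T cells summed to 6.57 to 7.82 CPM. The sums were 5.72 to 5.98 CPM in IL12, 7.34 to 7.38 CPM in DRIL18 and 6.45 to 7.08 CPM in Mock. Cd40lg had 1.605 and 2.07 CPM in the mixture and 0.522 and 0.157 CPM in IL12. Foxp3 had 0.0292 and 0.178 CPM in the mixture and 1.21 and 1.76 CPM in IL12. NK cell markers summed to at most 1.26 CPM. The part of these cells was not tested either.

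The B cell markers Ms4a1, Cd79a and Cd79b were low but detected. Ms4a1 had 3.85 and 5.54 CPM in the mixture, 2.48 and 2.45 CPM in IL12, 4.35 and 3.39 CPM in DRIL18, 2.21 and 3.0 CPM in Mock, and 3.04 and 3.73 CPM in NoEp. Cd79a had 4.87 and 5.04 CPM in the mixture, 4.21 and 3.11 CPM in IL12, 4.99 and 5.36 CPM in DRIL18, 4.78 and 4.49 CPM in Mock, and 5.71 and 6.34 CPM in NoEp. Cd79b had 4.84 and 5.22 CPM in the mixture, 3.76 and 4.12 CPM in IL12, 7.50 and 8.81 CPM in DRIL18, 8.01 and 6.72 CPM in Mock, and 9.23 and 8.57 CPM in NoEp. Like Irak3 and Tnip1, each of these markers was lower in both IL12 libraries than in both mixture libraries. Unlike them, Cd79b was lower in the mixture than in DRIL18, Mock or NoEp, and Cd79a was lower in the mixture than in NoEp. Their part in the levels of Irak3 and Tnip1 was not tested. Dendritic cell markers, mainly Xcr1, summed to 9.87 to 10.4 CPM in the mixture and 21.0 to 21.7 CPM in IL12. They summed to 3.09 to 3.98 CPM in DRIL18 and 4.76 to 4.95 CPM in Mock. The sum was highest in IL12, where Irak3 was lowest, and next in the mixture, where Irak3 was highest. Zbtb46, also on that list, was like Irak3 highest in the mixture, at 2.54 and 1.69 CPM. It had 0.359 and 0.880 CPM in IL12, 0.894 and 0.560 CPM in DRIL18, and 0.226 and 0.387 CPM in Mock. The part of dendritic cells in the Irak3 levels was not tested.

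Tmbim4, a Golgi membrane gene that overlaps Irak3 on the other strand, had 48.1 and 49.6 CPM in the mixture, 32.8 and 32.7 CPM in IL12, 35.5 and 38.2 CPM in DRIL18, and 33.9 and 30.7 CPM in Mock. Its log2 fold change was 0.60 in the mixture (adjusted p = 4.47e-10), 0.19 in DRIL18 (adjusted p = 0.0245) and 0.02 in IL12 (adjusted p = 0.819). Tmbim4 rose with Irak3 by a smaller fold in the mixture and DRIL18, and did not fall with it in IL12. In reads, Tmbim4 was the larger gene of the pair, and the part of shared reads in the rises of Irak3 was not tested.

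Set side by side per kilobase of exon, the 4 IRAK genes changed their proportions. Irak1 was the most abundant in every group, at 25.8, 33.3, 31.0, 33.1 and 32.9 CPM per kilobase in the mixture, IL12, DRIL18, Mock and NoEp. Irak3 made up 7.08% and 7.82% of the summed level of the 4 genes in the mixture, 0.285% and 0.332% in IL12, 2.97% and 2.87% in DRIL18, 1.05% and 1.20% in Mock, and 1.51% and 1.32% in NoEp. Irak2 made up 13.9% and 13.1% in the mixture and 14.1% and 14.5% in IL12, against 6.54% and 7.01% in Mock. Irak1 was at 64.1% and 63.9% of the sum in the mixture, against 75.7% and 74.7% in Mock, and Irak4 was at 14.9% and 15.2% in the mixture and 16.7% and 17.1% in Mock. These are shares of RNA, described without a test.

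Below the kinases stands TRAF6, the ubiquitin ligase of the pathway. Traf6 (ENSMUSG00000027164) had 70.3 and 74.0 CPM in the mixture, 93.7 and 90.9 CPM in IL12, 88.8 and 85.5 CPM in DRIL18, 103.9 and 103.9 CPM in Mock, and 102.4 and 100.7 CPM in NoEp. Every cytokine group lay below both control groups with no overlap, and the mixture lay lowest. It fell by 0.53 ± 0.04 on the log2 scale in the mixture (adjusted p = 7.52e-12), by 0.17 ± 0.04 in IL12 (adjusted p = 0.00182) and by 0.25 ± 0.04 in DRIL18 (adjusted p = 4.8e-05). Traf6 was the member that fell against Mock in all 3 cytokine groups.

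Traf1 (ENSMUSG00000026875) encodes a TRAF without the ligase RING domain, itself a known NF-kB target in lymphocytes. It had 323.4 and 318.9 CPM in the mixture, 235.6 and 241.5 CPM in IL12, 238.5 and 239.0 CPM in DRIL18, 233.5 and 224.4 CPM in Mock, and 237.6 and 247.2 CPM in NoEp. The mixture stood apart above the other 8 libraries, among which IL12, DRIL18 and NoEp overlapped and Mock was slightly lower. Traf1 rose by 0.49 ± 0.04 on the log2 scale in the mixture (adjusted p = 4e-13), while 0.06 in IL12 (adjusted p = 0.2) and 0.06 in DRIL18 (adjusted p = 0.266) did not pass. The mixture was 1.35-fold above IL12 (adjusted p = 1.65e-11) and 1.34-fold above DRIL18 (adjusted p = 1.24e-11).

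The ubiquitin reader and its kinase moved by small amounts. Tab2 (ENSMUSG00000015755) had 321.1 and 343.4 CPM in the mixture, 373.2 and 356.5 CPM in IL12, 273.3 and 288.7 CPM in DRIL18, 301.8 and 295.2 CPM in Mock, and 298.2 and 306.7 CPM in NoEp. IL12 was highest, the mixture next and DRIL18 lowest, and Mock and NoEp overlapped. Tab2 rose by 0.29 ± 0.04 on the log2 scale in IL12 (adjusted p = 3.08e-07) and by 0.15 ± 0.04 in the mixture (adjusted p = 0.00101), and the call in the mixture was lost without mixture replicate 2 (0.10, adjusted p = 0.0547). In DRIL18 it was -0.09 (adjusted p = 0.112), which passed where only the groups compared were fitted (adjusted p = 0.032). The mixture was lower than IL12, at -0.14 (adjusted p = 0.00433), a call lost without IL12 replicate 1 (adjusted p = 0.0528) or mixture replicate 1 (-0.09, adjusted p = 0.13).

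Map3k7 (ENSMUSG00000028284), which encodes TAK1, had 169.2 and 168.3 CPM in the mixture, 138.8 and 134.9 CPM in IL12, 134.0 and 141.6 CPM in DRIL18, 124.2 and 125.3 CPM in Mock, and 126.5 and 121.4 CPM in NoEp. The mixture lay highest, IL12 and DRIL18 overlapped in the middle, and Mock and NoEp overlapped at the bottom. The log2 fold change was 0.44 ± 0.04 in the mixture (adjusted p = 5.35e-11), 0.13 ± 0.04 in IL12 (adjusted p = 0.00805) and 0.14 ± 0.04 in DRIL18 (adjusted p = 0.00872). The IL12 call was lost without IL12 replicate 1 (adjusted p = 0.0598) or Mock replicate 1 (adjusted p = 0.0625), and the DRIL18 call was lost with DRIL18 replicate 2 left out (0.10, adjusted p = 0.203) and also with either Mock library left out (adjusted p = 0.0886 for replicate 1 and 0.051 for replicate 2).

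The inhibitor TNIP1 binds ubiquitin chains and A20. Tnip1 (ENSMUSG00000020400) had 236.0 and 253.4 CPM in the mixture, 90.4 and 84.5 CPM in IL12, 144.2 and 145.9 CPM in DRIL18, 114.5 and 112.3 CPM in Mock, and 122.2 and 118.5 CPM in NoEp. The order was mixture, DRIL18, NoEp, Mock and IL12, as with Irak3. No groups overlapped, which also held for Irak2, Irak3 and Traf6, and how often it holds over all genes was not counted. The log2 fold change was 1.11 ± 0.04 in the mixture (adjusted p = 1.98e-20), -0.38 ± 0.04 in IL12 (adjusted p = 2.74e-08) and 0.35 ± 0.04 in DRIL18 (adjusted p = 1.58e-07). Mock against NoEp was -0.09 (adjusted p = 0.282). The mixture was 2.80-fold above IL12 (1.48 ± 0.04, adjusted p = 5.38e-23) and 1.69-fold above DRIL18 (adjusted p = 3.61e-16).

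Promoter windows of Tnip1 and Map3k7, the pair of members that hold the NF-kB consensus, are printed because both genes were highest in the mixture. In 32851 RefSeq promoters 1480, or 4.51%, hold the consensus on either strand. The Tnip1 match lies 58 bases before the start, in chr11:54962962-54963023 on the minus strand of GRCm38.p6, where 4 placements of the consensus overlap, and the Map3k7 match lies 92 bases before the start, in chr4:31963990-31964049 on the plus strand. Tnip1 also holds the STAT motif TTCNNNGAA further upstream, 199 bases before the start, in chr11:54963106-54963164 on the minus strand. Capitals mark the matches.
Tnip1 NF-kB window: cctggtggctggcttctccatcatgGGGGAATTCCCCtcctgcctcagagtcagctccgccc
Map3k7 NF-kB window: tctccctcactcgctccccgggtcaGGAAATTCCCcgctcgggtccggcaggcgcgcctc
Tnip1 STAT window: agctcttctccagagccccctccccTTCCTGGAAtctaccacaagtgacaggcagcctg
Irak3 and Traf1, which also were highest in the mixture, have no match of either motif in this window, which says only that these letters are not there.

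Per kilobase of exon the most abundant member differed between groups. Tnip1 led in the mixture with 69.1 CPM per kilobase, ahead of Tab2 with 54.2, and Tab2 led in IL12 (59.5), DRIL18 (45.8), Mock (48.7) and NoEp (49.3). Myd88 was at 36.3 CPM per kilobase in the mixture and 49.7 in IL12, against 20.0 in Mock. Irak3 was the least abundant member in every group, at 3.0 CPM per kilobase in the mixture and 0.494 in Mock.

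**Figure D2:**
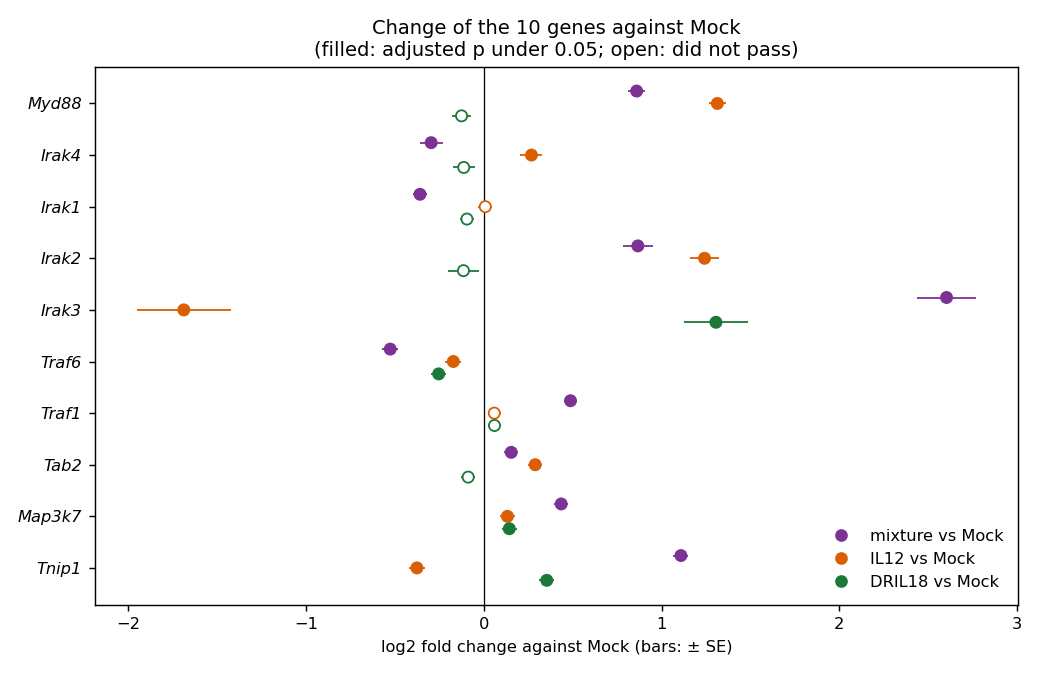
Log2 fold change (x axis) of each gene in the mixture, IL12 and DRIL18 against Mock; bars are standard errors, filled points passed at an adjusted p under 0.05 and open points did not. Irak3 and Tnip1 lie right of 0 in the mixture and DRIL18 and left of 0 in IL12, and Traf6 lies left of 0 in all 3.

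What IL-12 mRNA added to DRIL18 mRNA was read from the mixture against DRIL18. Here 7 members were higher and 3 lower, against 28.3% and 29.0% of all genes, and the median was 0.36 over the members and -0.0134 over all genes. Irak3 (1.30), Myd88 (0.98, adjusted p = 3.08e-17) and Irak2 (0.98, adjusted p = 1.16e-11) had the largest log2 fold changes, followed by Tnip1 (0.75). Traf6 (-0.27, adjusted p = 5.1e-06) and Irak1 (-0.26, adjusted p = 8.74e-07) were lower.

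What DRIL18 mRNA added to IL-12 mRNA was read from the mixture against IL12, with 4 members higher and 6 lower against 25.8% and 26.3% of all genes. The 4 higher members were Irak3 (4.29), Tnip1 (1.48), Traf1 (0.43) and Map3k7 (0.30, adjusted p = 1.54e-07). The 6 lower ones were Irak4 (-0.56, adjusted p = 5.45e-09), Myd88 (-0.45), Irak2 (-0.38), Irak1 (-0.37, adjusted p = 2.15e-09), Traf6 (-0.36, adjusted p = 6.85e-08) and Tab2 (-0.14). The median was -0.245 over the members and -0.00797 over all genes.

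The single mRNAs were also set against each other. IL12 was above DRIL18 for 5 members and below it for 2, against 18.9% and 20.6% of all genes, with medians of 0.0928 and -0.0149. Myd88 (1.44, adjusted p = 2.54e-21), Irak2 (1.36, adjusted p = 8.65e-15), Irak4 (0.38, adjusted p = 8.98e-06), Tab2 (0.38, adjusted p = 2.55e-09) and Irak1 (0.10) were higher in IL12, and Irak3 (-2.99, adjusted p = 2.8e-12) and Tnip1 (-0.73, adjusted p = 8.44e-15) were lower. Traf1, Map3k7 and Traf6 did not pass, at -0.00, -0.01 and 0.08.

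Mock was also set against NoEp, where edgeR called 0 members, against 3.34% of all genes higher and 3.64% lower. The mark bis stands on both NoEp libraries and on no Mock library, so this comparison of electroporation coincides with the mark. The 24 h of culture after electroporation applied to Mock, and no such time is given for NoEp. Of the 10 members 1 had an unadjusted p under 0.05, and the smallest adjusted p was 0.201. DESeq2 and limma-voom called 0 as well. Log2 fold changes lay between -0.345 (Irak3) and 0.0335 (Traf6), with a median of -0.0184 over the members and -0.00423 over all genes.

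The interaction asks whether the mixture differs from the sum of the single log2 effects, and it equals the effect of DRIL18 in the presence of IL-12 less its effect on Mock. It passed upward for 4 members and downward for 3, against 14.6% and 17.1% of all genes, with medians of -0.0744 and -0.0161. For Irak3 the mixture stood at 2.60 where the single effects summed to -0.38, an interaction of 2.98 ± 0.30 (adjusted p = 1.9e-09), and 128 of the 15777 genes had a larger one. For Tnip1 the mixture stood at 1.11 where the single effects summed to -0.02, an interaction of 1.13 ± 0.06 (adjusted p = 1.11e-15). Traf1 (0.37 ± 0.05, adjusted p = 1.18e-06) was above its sum of 0.12 as well.

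Below their sums were Irak4 (-0.45 ± 0.09, adjusted p = 0.000179), Myd88 (-0.33 ± 0.07, adjusted p = 0.000354) and Irak1 (-0.27 ± 0.06, adjusted p = 0.00024). Acaa1a, the overlapping partner of Myd88, had an interaction of -0.34 (adjusted p = 0.00112), about as large as that of Myd88, and its part was not tested. Irak2 (-0.26 ± 0.12, adjusted p = 0.0919), Traf6 (-0.10 ± 0.06, adjusted p = 0.242) and Tab2 (-0.05 ± 0.06, adjusted p = 0.576) did not pass. Map3k7 passed at 0.16 ± 0.06 (adjusted p = 0.0332), a call that was lost with no filter on low counts (adjusted p = 0.0673), with DESeq2 (adjusted p = 0.054) and without any of 6 single libraries. Adjusted p-values were 0.199 without DRIL18 replicate 1 (0.12), 0.101 without IL12 replicate 2, 0.0761 and 0.0695 without mixture replicates 1 and 2, and 0.0781 and 0.12 without Mock replicates 1 and 2.

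**Figure D3:**
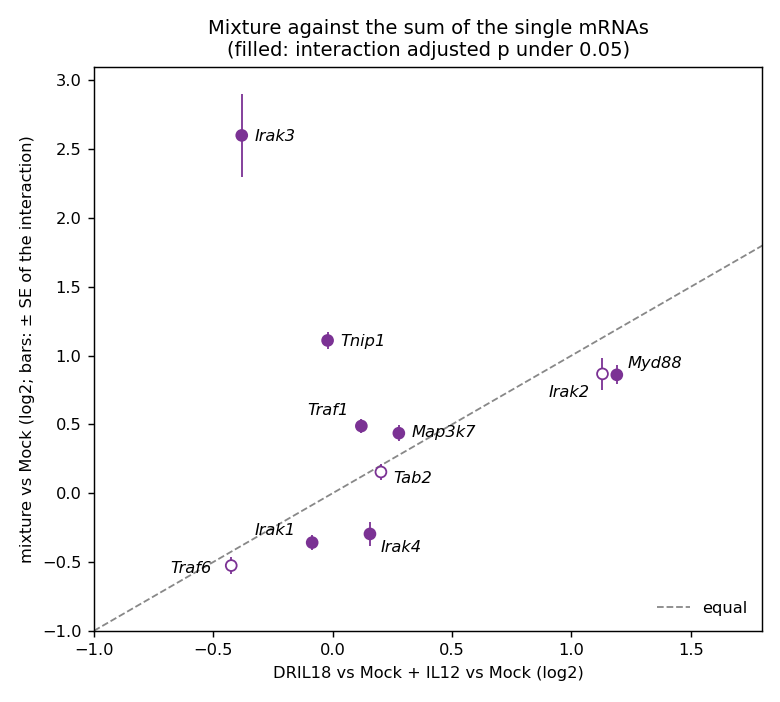
For each of the 10 genes, the mixture against Mock (y axis, log2 fold change) over the summed single effects of DRIL18 and IL12 against Mock (x axis, log2), with the standard error of the interaction as bars and a dashed line of equality. Irak3 (2.60 against a sum of -0.38) and Tnip1 (1.11 against -0.02) lie furthest above the line, and Irak4 and Myd88 lie below it.

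**Figure D4:**
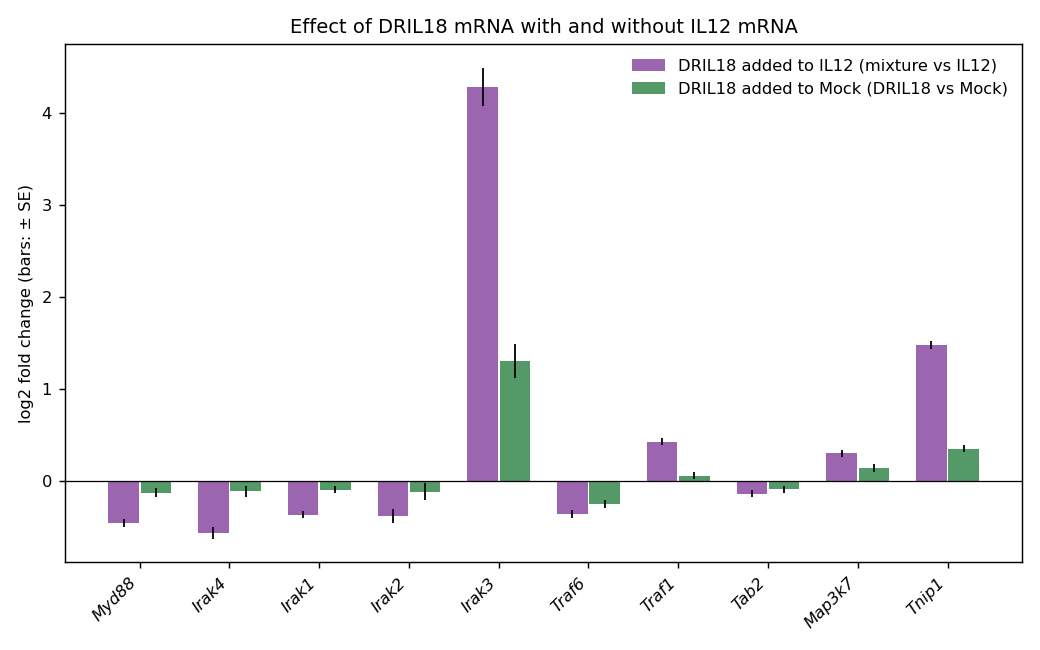
Log2 fold change when DRIL18 mRNA was added to IL-12 mRNA (mixture against IL12) and when it was given alone (DRIL18 against Mock); bars start at 0 and lines are standard errors. Irak3 is at 4.29 and 1.31 and Tnip1 at 1.48 and 0.35, and Myd88, Irak4, Irak1, Irak2, Traf6 and Tab2 lie below 0 in both.

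Irak3 and Tnip1 had the widest ranges between group means, 4.16 and 1.48 on the log2 CPM scale, with Myd88 next at 1.44. Genes with a pattern like that of Irak3 or Tnip1 were therefore sought among those with a mean of at least 5 CPM. The measure was the Pearson correlation of log2 CPM over the 10 libraries, which share their 5 groups and their depth. The 3 nearest to Irak3 were Jade2 (r = 0.991), Plxnd1 (r = 0.989) and Cep290 (r = 0.984). Jade2 averaged 201 CPM in the mixture, 42.7 CPM in IL12, 119 CPM in DRIL18, 88.0 CPM in Mock and 87.0 CPM in NoEp, the same order of the cytokine groups as Irak3. The 3 nearest to Tnip1 were the tetraspanin gene Cd82 (r = 0.992), Mex3c (r = 0.992) and the survival gene Bcl2l2 (r = 0.989). Cd82 averaged 347 CPM in the mixture, 92.9 CPM in IL12, 202 CPM in DRIL18, 132 CPM in Mock and 138 CPM in NoEp.

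The rest of the pathway was read from a list of 70 other genes in 8 roles, 68 of which had enough reads to test (Peli2 and Peli3 had not). In the mixture against Mock 36 were higher and 19 lower with a median log2 fold change of 0.234. In IL12 25 were higher and 16 lower (median 0.0296), in DRIL18 22 and 12 (median 0.0402), and in Mock against NoEp 2 and 6. Shares of all genes for these comparisons are those given above. Only counts and medians are given for the roles, without a test of the list.

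On the receptor side, 4 of 7 genes were higher and 1 lower in the mixture, 5 and 1 in IL12, and 1 and 2 in DRIL18. The lower gene in both the mixture and IL12 was Sigirr. It was at -0.45 in the mixture (adjusted p = 2.62e-09) and -0.19 in IL12 (adjusted p = 0.00204). The IL-18 receptor chains Il18r1 and Il18rap stood at 2.92 and 1.96 in the mixture, at 3.51 and 2.40 in IL12, and at -0.87 and -0.63 in DRIL18 (log2 against Mock). Il1rl1, the IL-33 receptor that uses the same relay, had 104 and 116 CPM in the mixture and 104 and 103 CPM in IL12, against 0.849 and 0.714 CPM in Mock. Il18bp, the secreted decoy that the IL-18 variant is made to escape, had 7.56 and 7.56 CPM in the mixture, 8.65 and 10.2 CPM in IL12, 10.1 and 10.5 CPM in DRIL18, and 6.62 and 6.13 CPM in Mock. It was 0.57 higher in IL12 (adjusted p = 0.000227) and 0.69 higher in DRIL18 (adjusted p = 4.1e-05), while 0.25 in the mixture did not pass (adjusted p = 0.0803). The mixture was lower than IL12 (-0.32, adjusted p = 0.0222) and lower than DRIL18 (-0.44, adjusted p = 0.00153), with an interaction of -1.01 (adjusted p = 1.52e-05). Il18r1 and Il18rap had the order IL12, mixture, Mock that Myd88 and Irak2 showed, and Il1rl1 did not, at 0.09 in the mixture against IL12 (adjusted p = 0.185).

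Among adaptors and Pellino or E2 partners, 5 of 9 were higher and 1 lower in the mixture, 3 and 2 in IL12, and 0 and 2 in DRIL18. Peli1, a ubiquitin ligase that acts with the IRAKs, fell by 0.62 in the mixture (adjusted p = 1.57e-12), by 0.25 in IL12 and by 0.16 in DRIL18. Ube2n, the E2 enzyme with which TRAF6 builds chains, was 0.48 higher in the mixture (adjusted p = 6.78e-11). In the rest of the TRAF family 6 of 10 were higher and 2 lower in the mixture, 4 and 4 in IL12, and 6 and 1 in DRIL18. Birc3, an inhibitor-of-apoptosis ligase that binds TRAF2, was at 1.78 in the mixture, 0.43 in IL12 and 0.79 in DRIL18, and Traf5 was at -1.17 in the mixture and -0.62 in IL12.

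The TAK1 and IKK complexes had 3 of 10 higher and 5 lower in the mixture, 3 and 3 in IL12, and 2 and 2 in DRIL18. The kinase gene Map3k8 (TPL2) followed IL-12, at 1.44 in the mixture and 1.92 in IL12. The IKK subunits Ikbkb (-0.74, adjusted p = 2.97e-17) and Ikbkg (-0.44, adjusted p = 2.03e-08) were lower in the mixture. Chuk, which encodes a further IKK subunit, was higher there, at 0.28 (adjusted p = 1.73e-06). All 3 LUBAC genes, which encode the ligase of linear ubiquitin chains, were lower in the mixture than in Mock: Rnf31 was at -0.58, Sharpin at -0.50 and Rbck1 at -0.19, while 0 of 3 passed in IL12 or in DRIL18. Rnf31 had 51.5 and 60.8 CPM in the mixture, 85.3 and 82.9 CPM in IL12, 76.6 and 77.2 CPM in DRIL18, and 82.5 and 85.8 CPM in Mock.

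Among brakes and deubiquitinases, 6 of 12 were higher and 4 lower in the mixture, 5 and 1 in IL12, and 6 and 2 in DRIL18. Zc3h12a, which encodes the RNA-degrading enzyme regnase-1, had 117 and 123 CPM in the mixture, 25.6 and 26.8 CPM in IL12, 58.5 and 60.1 CPM in DRIL18, and 24.2 and 21.6 CPM in Mock. Tnfaip3, which encodes A20, had 68.7 and 65.9 CPM in the mixture, 29.9 and 30.7 CPM in IL12, 47.1 and 46.2 CPM in DRIL18, and 32.2 and 29.9 CPM in Mock. Like Tnip1, both were highest in the mixture and next in DRIL18, but IL12 did not lower them: Tnfaip3 was at -0.04 (adjusted p = 0.673) and Zc3h12a at 0.19 (adjusted p = 0.0182). Otulin, which cuts linear chains, was at 1.43 in the mixture, and Tnip2, a relative of Tnip1, at 1.29. Of the 4 brakes lower in the mixture, Tnip3 was at -0.65 (adjusted p = 0.000974) and Tnfaip8l2 at -0.56 (adjusted p = 2.6e-09).

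Of the MAP kinases below TAK1, 4 of 8 were higher and 3 lower in the mixture, 1 and 3 in IL12, and 2 and 3 in DRIL18. Map2k6, a kinase that activates p38, was at -2.13 in the mixture and -1.67 in IL12, Mapk14 (p38 alpha) was at -0.75 in the mixture, and the p38 substrate Mapkapk2 was at 1.03 in the mixture and 0.92 in IL12. The 9 genes listed as NF-kB readout encode NF-kB subunits and members of its inhibitor family, and NF-kB activity itself was not measured. Of these 9 genes 8 were higher and 0 lower in the mixture, 4 and 2 in IL12, and 5 and 0 in DRIL18. Their medians were 0.969, 0.0831 and 0.56. Nfkbia, the inhibitor that NF-kB itself switches on, had 227 and 221 CPM in the mixture, 47.4 and 42.8 CPM in IL12, 110 and 116 CPM in DRIL18, and 44.4 and 43.0 CPM in Mock. Nfkbiz was at 2.92 in the mixture, 1.08 in IL12 and 0.85 in DRIL18.

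**Figure D5:**
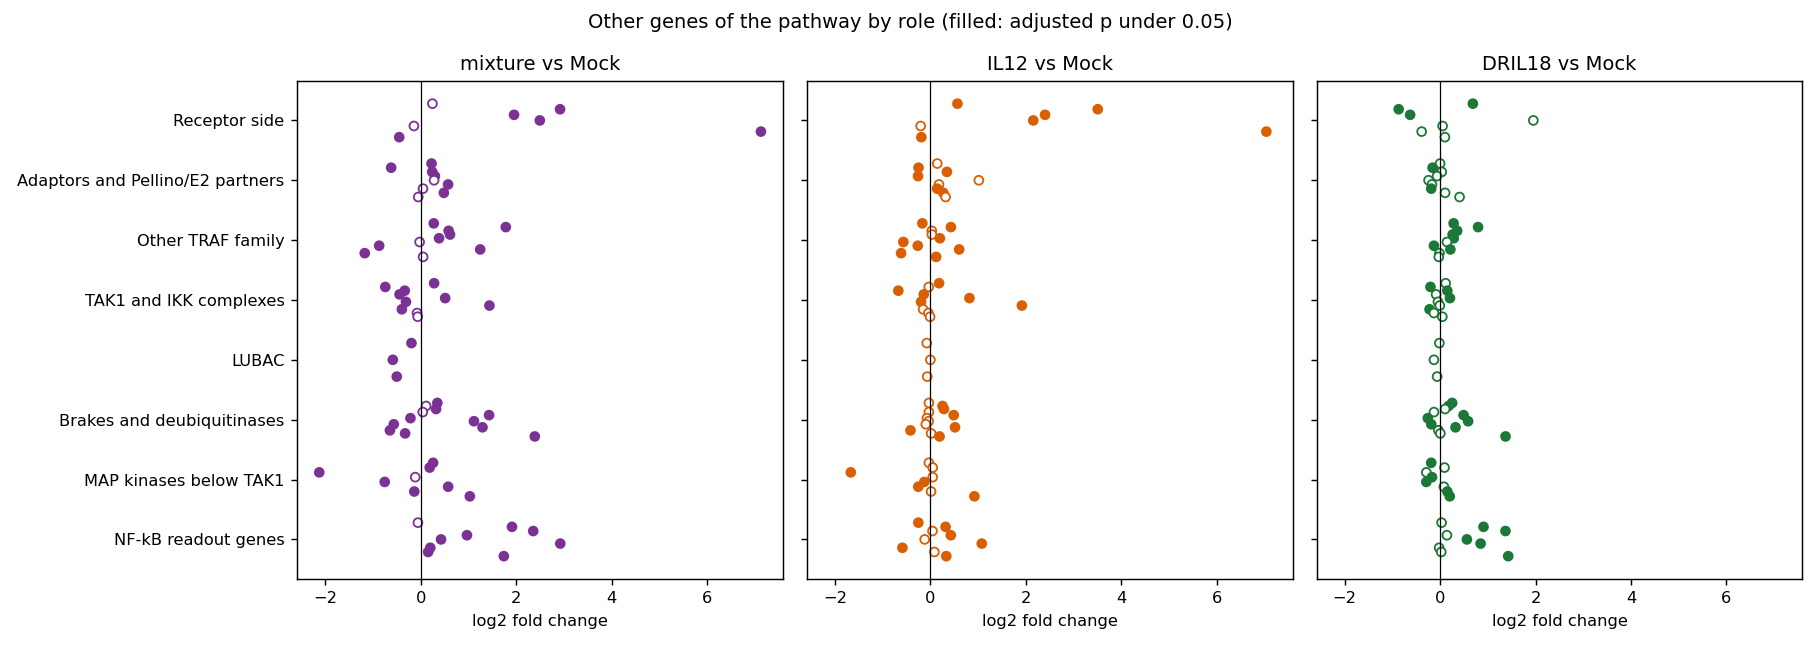
Log2 fold change (x axis) of the 68 tested other genes of the pathway by role in the mixture, IL12 and DRIL18 against Mock; each point is a gene, filled where the adjusted p was under 0.05. In the mixture most NF-kB readout genes lie right of 0, brakes lie on both sides, and all 3 LUBAC genes lie left of it.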

How the data were processed

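Both deposited tables were used as the authors made them. The tools in the submitters' processing notes are STAR 2.7.9, featureCounts, edgeR and limma, with mm39 as the build. The labels' protocols name a stranded TruSeq mRNA kit, but no source used here gives the strand setting of the counting. The main table holds whole-number read counts, which the authors deposited without scaling, for 55359 genes in 10 libraries. A second deposited table holds log2 CPM values for 13225 genes and was used for 1 alternative, limma-trend. Symbols for 52083 identifiers and exon lengths came from GENCODE M21 on GRCm38, and promoter sequences from RefSeq on GRCm38.p6.

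Counts were fitted with edgeR 4.0.16 in R 4.3.3 (filterByExpr, TMM, quasi-likelihood F test, 5 group means, all 10 libraries, 5 residual degrees of freedom). The common coefficient of variation between replicates was 3.39%. Alternatives used DESeq2 1.42.0, limma 3.58.1, no filter, another scaling, the mark bis as a covariate, only the groups compared, a replicate block, and each library left out. Replicates of a group differed by more than counting noise (chi-square per degree of freedom 2.56 to 4.80). The procedure was tested on simulated data.

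All 10 members are named whether or not they passed. Of the other pathway genes, most of those named are among the called genes of largest change in their role, at most 4 a role and comparison. Sigirr, Chuk, Tnip3 and Tnfaip8l2 are named because they changed in the opposite direction to others named in their role. Some genes are given for only some of the groups. The members and lists were chosen with earlier results of these data known. NE in column names was read as not electroporated, and no source used here explains bis, which stands on both mixture and both NoEp libraries and on replicate 2 of IL12 and DRIL18. No Mock library carries bis, so the mixture against Mock and Mock against NoEp both coincide with the mark. With bis as a covariate, 10 members were called in the mixture against Mock, where 8487 of the 15777 genes were called. In Mock against NoEp 0 members and 171 genes were called. Within a group bis differs only in IL12 and DRIL18, where it coincides with the replicate number. That covariate therefore cannot tell the mark from the replicate. Of the B cell markers, 1 is not reported here.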

Additional observations from a re-analysis of the deposited data

Results flagged for a closer look

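For 7 members the effect of DRIL18 mRNA differed between cells that also received IL-12 mRNA and Mock cells, by the interaction term of the same edgeR fit. Of all genes, 14.6% passed upward and 17.1% downward in this term, so such a call is common background. For Irak3 the effect was 4.29 beside IL-12 and 1.31 on Mock, a difference of 2.98 (log2, adjusted p = 1.9e-09). For Tnip1 it was 1.48 and 0.355, a difference of 1.13 (adjusted p = 1.11e-15). For Traf1 it was 0.429 and 0.0604, a difference of 0.368 (adjusted p = 1.18e-06). The Irak4 effect was -0.564 and -0.113, a difference of -0.452 (adjusted p = 0.000179). The Myd88 effect was -0.454 and -0.125, a difference of -0.329 (adjusted p = 0.000354). The Irak1 effect was -0.367 and -0.0946, a difference of -0.273 (adjusted p = 0.00024). The Map3k7 effect was 0.302 and 0.144, a difference of 0.159 (adjusted p = 0.0332), the call that several alternatives lost.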

How the results depend on the processing

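Each of the 80 values (10 members in 8 comparisons) was computed under 19 alternatives. Of 56 called values, 49 kept their direction and their call in all of them, 7 lost the call in at least 1, and 0 reversed, and the 7 are named beside their results with the setting. A further 3 values, all in DRIL18 against Mock, were called in an alternative only, and of the 21 called nowhere 10 changed sign in at least 1 alternative. Over all genes, Mock against NoEp called 1102 genes, and 171 with the mark bis as a covariate; leaving out 1 library gave 242 to 1399. DRIL18 against Mock called 3832 genes, and 2525 to 4125 when 1 library was left out, the lowest without Mock replicate 2. The cause of these shifts was not tested, beyond that fewer samples enter each leave-one-out fit. Replicate numbers are shared between the groups, but same-numbered libraries did not deviate together: 1 of 10 correlations of replicate differences was over 0.1 (range -0.0754 to 0.139), so the numbers were not taken as pairs. With the replicate block, the mixture against Mock called 10051 genes against 10081 without it, and the number of members called was the same in every comparison. Irak3 in IL12 rests on 16 and 19 reads, the fewest of any member and group.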
